A study of Homo sapiens with 6 samples.

Results

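The 97 neurotransmitter receptor genes described here are the protein-coding genes of the expression table whose symbols place them in the GABA, glutamate, acetylcholine, serotonin, dopamine or adrenergic receptor families. The rule used gene symbols only and no measured value, and it was applied to 58174 annotated genes of which 19799 were protein-coding. Of the 97 genes, 56 encode subunits of ion channels and 41 encode G protein-coupled receptors.

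Transmitter-gated channels open within milliseconds of binding GABA, glutamate, acetylcholine or serotonin, and each channel is an assembly of several subunits. Receptors built from different subunits need the mRNAs of all their partners. Metabotropic receptors for the same transmitters, and those for dopamine and noradrenaline, act more slowly through G proteins that change cyclic AMP, calcium or potassium conductance. These receptors are best known from neurons, but glial cells and gliomas also carry some of them, and glutamate receptors in particular have been studied in glioma growth and invasion.

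The data are polyA-selected RNA-seq libraries of KNS42 cells, an established line of pediatric glioblastoma (GBM) cells grown in serum-containing medium. Musashi1 (MSI1), an RNA-binding protein of neural stem cells that binds 3′UTRs, was depleted in these cells. Control cells received a control siRNA (siC, 3 libraries), and depleted cells received an siRNA pool against MSI1 (siMSI1, 3 libraries). All cells were harvested 72 h after transfection, and the question was which transcripts change in abundance once MSI1 is depleted. The groups therefore represent 1 cell line and 1 siRNA pool. The sources used here do not say whether the replicates were separate cultures, so p-values measure only the spread between these libraries, which may be technical.

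Between 13087025 and 18024080 reads per library were assigned to genes. Levels are given as FPKM, fragments scaled by gene length and library size, a scale on which genes of different length can be compared. At this depth 3 reads on a gene of 2 kb correspond to 0.0829 to 0.114 FPKM. MSI1 mRNA measured 63.7, 61.9 and 66.9 FPKM in the siC libraries and 12.1, 12.3 and 11.2 FPKM in the siMSI1 libraries, which is 18.5% of the control mean (log2 fold change -2.43, SE 0.067, limma adjusted p = 8.71e-06). All 5 neural stem cell and glioma markers examined (SOX2, NES, VIM, MSI1 and CD44) were above 0.5 FPKM on average. Of 7 oligodendrocyte lineage markers, OLIG1 and OLIG2 had 0 reads in every library. PDGFRA, the only gene of that list above 0.5 FPKM, measured 20.9 FPKM on average in siC and 24.1 FPKM in siMSI1.

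Most receptor genes were silent or nearly so in KNS42 cells. Only 17 of the 97 genes (17.5%) reached a mean of 0.5 FPKM over the 6 libraries, the level required for testing, compared with 57.4% of all protein-coding genes. A further 17 genes were lower but had more than 3 reads in every library of at least 1 group. Another 33 genes had only scattered reads, with at most 10 in any library, and 30 genes had 0 reads in all libraries. At 0 reads a level below 3 reads per library cannot be told from absence. Intervals and limits of this kind cover counting error only.

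**Figure D1:**
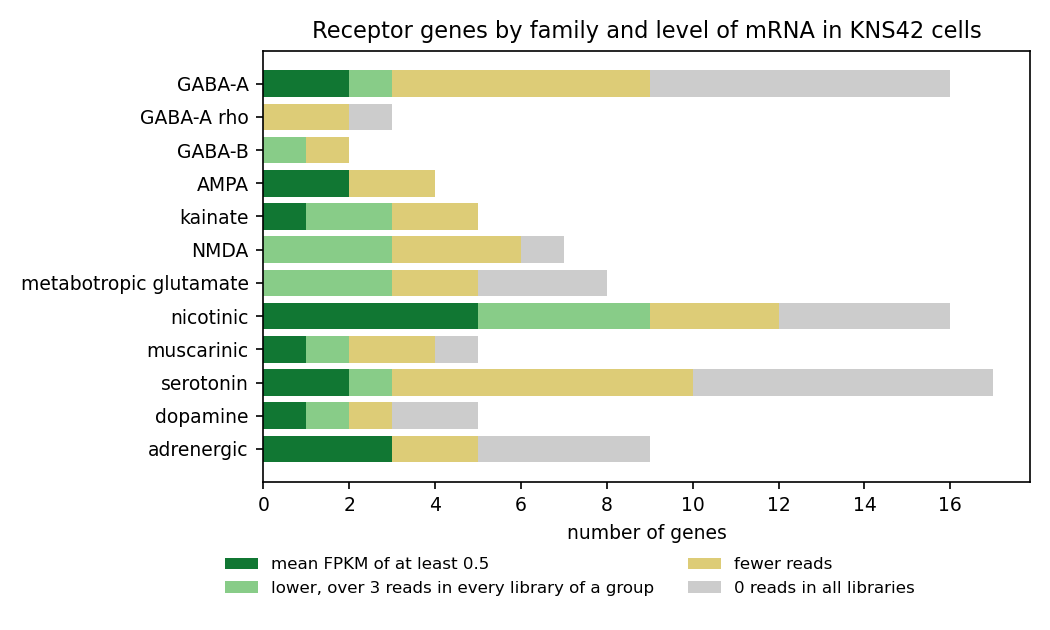
Number of receptor genes per family (horizontal axis), split by mRNA level in the 6 KNS42 libraries. Nicotinic subunits gave the most genes above the 0.5 FPKM filter (5 of 16), and neither the NMDA nor the metabotropic glutamate families gave any (0 of 7 and 0 of 8).

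For several receptor types, the mRNA of a usual partner in the brain was absent or nearly so. Kainate receptors are not among the types listed here, as GRIK2 had 581 to 975 reads, GRIK4 15 to 42 and GRIK5 6 to 25. GABA-A receptors are pentamers usually built from alpha and beta subunits plus one of another kind. The theta subunit gene GABRQ and the epsilon subunit gene GABRE were well measured, and the alpha-3 subunit gene GABRA3 had 9 to 19 reads per library. The alpha subunit genes GABRA2, GABRA4, GABRA5 and GABRA6 had at most 1 read in any library, and the beta subunit genes GABRB1 and GABRB2 had at most 2 reads. Among NMDA receptors the GluN2B gene GRIN2B was detected with 40 to 107 reads, yet GRIN1, which encodes the obligatory subunit, had at most 2 reads. GABBR1, of the GABA-B receptor, had 25 to 52 reads, whereas its obligate partner GABBR2 had at most 1. GRIA2, the AMPA subunit that makes the channel impermeable to calcium, had at most 3 reads while GRIA1 had at least 1547. CHRNA4, the usual partner of CHRNB2 in the high-affinity nicotinic receptor of the brain, had 0 reads.

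Several families had few or no tested genes. Of the 17 serotonin receptor genes 2 were tested, and of the 5 dopamine receptor genes only DRD2. No adrenergic alpha-2 gene (ADRA2A, ADRA2B and ADRA2C) had more than 2 reads in a library. The 3 GABA-A rho genes had at most 5 reads. HTR2A, GRIN2A, DRD1 and CHRM2, which encode widely used receptors of the adult brain or heart, were among the 30 genes with 0 reads. The same 30 also included GABRD, GABRR3, GABRA2, GABRA5, GABRA6, GABRB2 and GABRP of the GABA-A receptors, GRM3, GRM4 and GRM6, CHRNG, CHRNA2, CHRNA4 and CHRNB3, HTR1A, HTR1E, HTR3D, HTR3E, HTR4 and HTR5A, DRD5, ADRA1A, ADRA2B and ADRB3.

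The 33 genes with scattered reads came from every family. They included GABRA4, GABRB1, GABRG1, GABRG3, GABRR1, GABRR2 and GABBR2 of the GABA receptors, and GRIA2, GRIA4, GRIK1, GRIK3, GRIN1, GRIN2C, GRIN3A, GRM2 and GRM8 of the glutamate receptors. The acetylcholine receptor genes among them were CHRNA6, CHRNB4, CHRND, CHRM1 and CHRM5, and the serotonin receptor genes were HTR1B, HTR2B, HTR2C, HTR3A, HTR3C, HTR6 and HTR7. DRD3, ADRA2A and ADRA2C were also in the group. GRIA4 had the highest single value, 10 reads in siMSI1 replicate 2, with 1 and 2 reads in the other siMSI1 libraries.

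GABRQ stood far above every other receptor gene. Its mean of 133 FPKM was 8.31 times that of the next member, HTR1D, and placed it at rank 248 among protein-coding genes. GABRQ alone gave 58.5% to 68.3% of all receptor reads in a library. All 97 receptor genes together took 0.110% to 0.148% of the reads of a library. HTR1D and GRIA1 followed at 16 and 15.6 FPKM, then ADRA1D at 11.3 FPKM. The remaining 13 tested genes lay between 0.506 FPKM (CHRNE) and 8.0 FPKM (GABRE), and all but GABRE were below the median of 7.44 FPKM of the tested protein-coding genes. In the order of levels, many ranges over the 6 libraries overlapped. Those of HTR1D and GRIA1 did, as did those of GABRE, CHRNA9 and GRIK2. The range of ADRA1D (10.2 to 12.4 FPKM) overlapped both that of HTR1D and that of GABRE. Lower down, the ranges of CHRNA5, DRD2 and CHRNB1 also overlapped. CHRNE lay just inside the filter, and CHRNA10, with a mean of 0.313 FPKM, lay just outside.

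**Figure D2:**
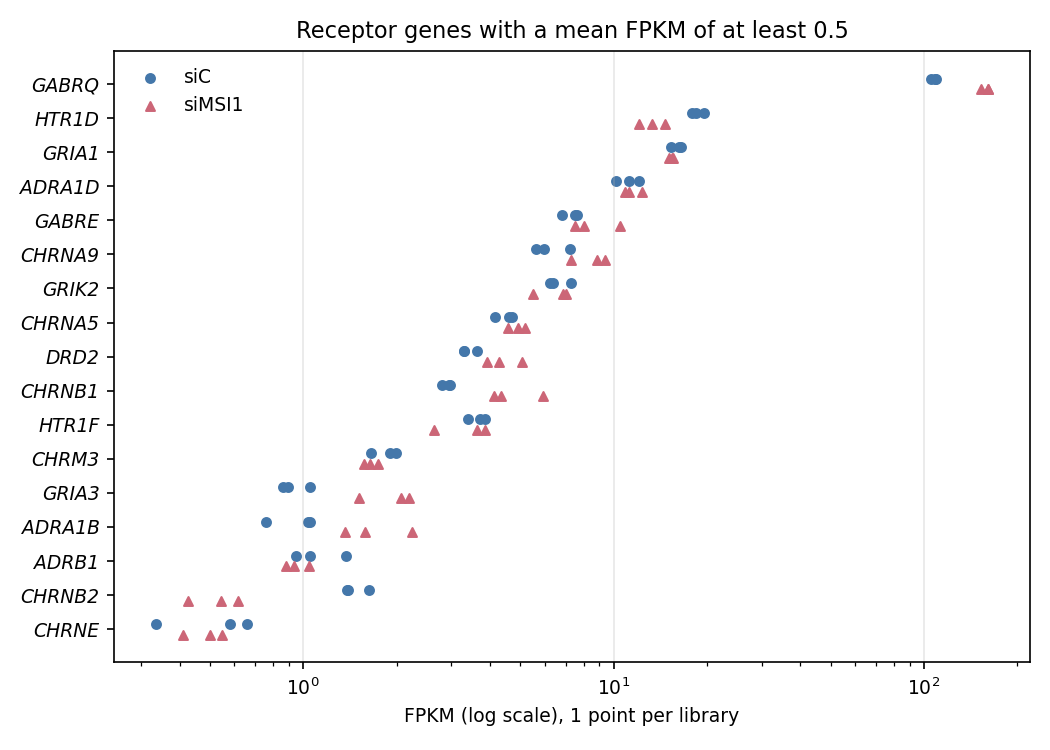
FPKM of the 17 tested receptor genes in each library (horizontal log axis, 1 point per library, circles siC and triangles siMSI1), ordered by mean level. GABRQ sits above 100 FPKM in all 6 libraries, and no other receptor gene exceeds 19.6 FPKM.

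Upon MSI1 knockdown, the GABA-A theta subunit GABRQ and the AMPA receptor subunit GRIA3 rose, and the serotonin receptor HTR1D and the nicotinic beta-2 subunit CHRNB2 fell. These 4 of the 17 tested receptor genes (23.5%) had an adjusted p below 0.01 in limma, with p-values adjusted by the Benjamini-Hochberg method across the 15069 genes tested. The background was 11% of all tested genes and 13.1% of the tested protein-coding genes. Higher in siMSI1 were 2 receptor genes, against 5.15% of all tested genes and 6.01% of the protein-coding ones. Lower were also 2, against 5.83% and 7.09%. The median log2 fold change of the 17 genes was 0.04, and 9 values were positive and 8 negative. At an adjusted p of 0.05, 7 of 17 (41.2%) were past the threshold, against 25.1% of all tested genes and 28.7% of the protein-coding ones. The groups did not overlap for 8 of 17 genes (47.1%), against 42.8% of all tested genes and 48.4% of the protein-coding ones. Of these 8 genes, 6 were higher in siMSI1 (21.4% of all tested genes and 23.6% of the protein-coding ones) and 2 were lower (21.5% and 24.8%). In this fit the receptor share past the threshold was thus above the background at both thresholds, though on only 4 and 7 of 17 genes. The excess depended on the fit. With a filter of 0.1 FPKM, 2 of 30 receptor genes were called at 0.01, against 6.56% of all genes. With replicate number in the model, 2 of 17 were called, against 2250 of 15069 genes. The read-based voom fit described below called 17.1% of receptor genes, against 14.7% of all genes. The share without overlap in either direction was near the background. Whether the receptor genes differ from the background as a set was not tested, and the results concern single genes. In bulk RNA, fewer cells that carry an mRNA and less of it per cell cannot be told apart.

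**Figure D3:**
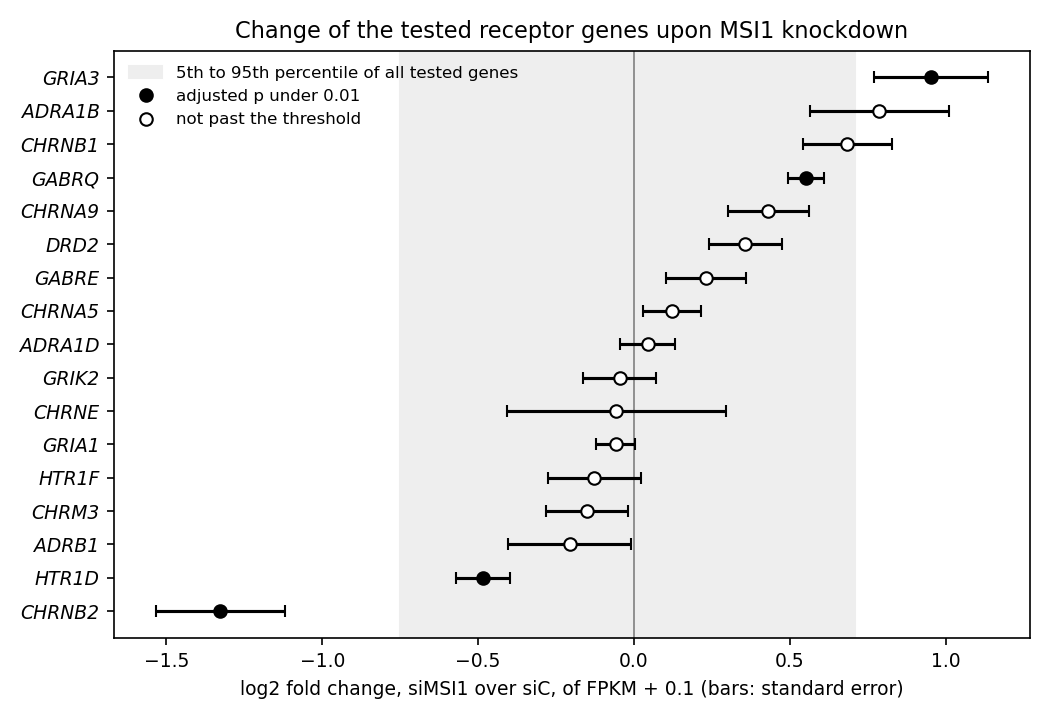
Log2 fold change of FPKM + 0.1, siMSI1 over siC, for the 17 tested receptor genes (points, bars give the standard error, filled points have an adjusted p under 0.01). GABRQ (0.55) and GRIA3 (0.95) are filled to the right and HTR1D (-0.49) and CHRNB2 (-1.33) to the left. The grey band from -0.75 to 0.71 holds all tested genes but 5% at each end.

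MSI1 and related Musashi proteins recognise short UAG-containing motifs, so the 3′UTRs of the receptor genes were read for GUAGU and AUAGU on the transcript strand only. The first match in each of the 2 genes that rose is given here with its surroundings to show its sequence context. Sequences are 5′ to 3′ in DNA letters from the GRCh38 assembly and GENCODE release 44, and capitals mark the motif:
GABRQ: tttgtctagtgcATAGTaagtgtcaacaag
GRIA3: cagtccgaagaaATAGTctccactcactaa

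These windows lie in the 3′UTR at chrX:152654293-152654322 on the plus strand for GABRQ and chrX:123490056-123490085 on the plus strand for GRIA3. The GABRQ 3′UTR held 7 matches in 4261 bases and the GRIA3 3′UTR 4 in 2205 bases. HTR1D held 1 match in 1191 bases and CHRNB2 3 in 4081 bases. Both genes that rose and both that fell thus held the motif. So did 12 of the 17 tested receptor genes (70.6%), against 66.7% of the 11201 tested protein-coding genes with an annotated 3′UTR, and the 3′UTRs of GRIA1, DRD2, ADRA1B, ADRB1 and CHRNE held none. A match is a description of the letters and neither a binding site nor a cause, and binding was not measured here.

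GABRQ, at chrX:152637895-152657542 on the plus strand, was the best measured of the changed receptor genes. Its level was 109, 108 and 106 FPKM in the siC libraries and 152, 161 and 160 FPKM in the siMSI1 libraries. The lowest depleted library lay well above the highest control, and the means were 107.7 ± 1.85 and 157.9 ± 4.79 FPKM (SD, n = 3 each). This is 147% of the control level, or a log2 fold change of 0.55 (SE 0.059, limma adjusted p = 0.000849). It rested on 9379 to 12093 reads in the controls and 13022 to 14219 reads in the depleted libraries. The call held in all 18 alternative fits, including each of the 6 fits that left out 1 library, where the adjusted p ranged from 0.00146 to 0.00822. The sum of all 16 GABA-A genes followed it, from 114 to 116 FPKM in siC to 163 to 169 FPKM in siMSI1.

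GABRQ lies in a cluster with GABRE (chrX:151953124-151974680) and GABRA3 (chrX:152166234-152451315), both on the opposite strand. GABRE measured 6.83, 7.5 and 7.63 FPKM in siC and 10.5, 8.02 and 7.52 FPKM in siMSI1. The groups overlapped and 1 depleted library stood out, so the log2 difference of 0.23 (SE 0.129, limma adjusted p = 0.233) did not exceed the spread between replicates. GABRA3 had 11, 15 and 16 reads in siC and 19, 9 and 16 in siMSI1, and also overlapped.

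AMPA receptors carry most fast excitatory transmission in the brain, and 2 of their 4 subunit genes were tested. GRIA3, at chrX:123184153-123490915, measured 0.896, 0.861 and 1.05 FPKM in siC and 2.06, 2.19 and 1.51 FPKM in siMSI1. All depleted libraries were above all controls, and the mean was 205% of the control mean, on 87 to 101 reads against 141 to 197. The log2 fold change of 0.95 (SE 0.183, limma adjusted p = 0.00878) was the largest increase among the called receptor genes. GRIA1, the more abundant subunit, measured 16.5, 16.2 and 15.3 FPKM in siC and 15, 15.5 and 15.5 FPKM in siMSI1. The GRIA1 groups overlapped and the difference of -0.06 on the log2 scale (SE 0.063, limma adjusted p = 0.541) did not exceed the spread.

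The kainate receptor subunit GRIK2 measured 6.37, 7.31 and 6.23 FPKM in siC and 7.0, 6.86 and 5.49 FPKM in siMSI1, with overlapping groups (log2 fold change -0.05, SE 0.117, limma adjusted p = 0.810). GRIK4, a kainate subunit that works only together with GRIK1, GRIK2 or GRIK3, was below the filter. It had 18, 25 and 15 reads in siC and 42, 31 and 32 in siMSI1, so the groups did not overlap. GRIK4 was not called in the read-based voom fit described below (voom adjusted p = 0.0128) or in limma with a filter of 0.1 FPKM (adjusted p = 0.150).

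**Figure D4:**
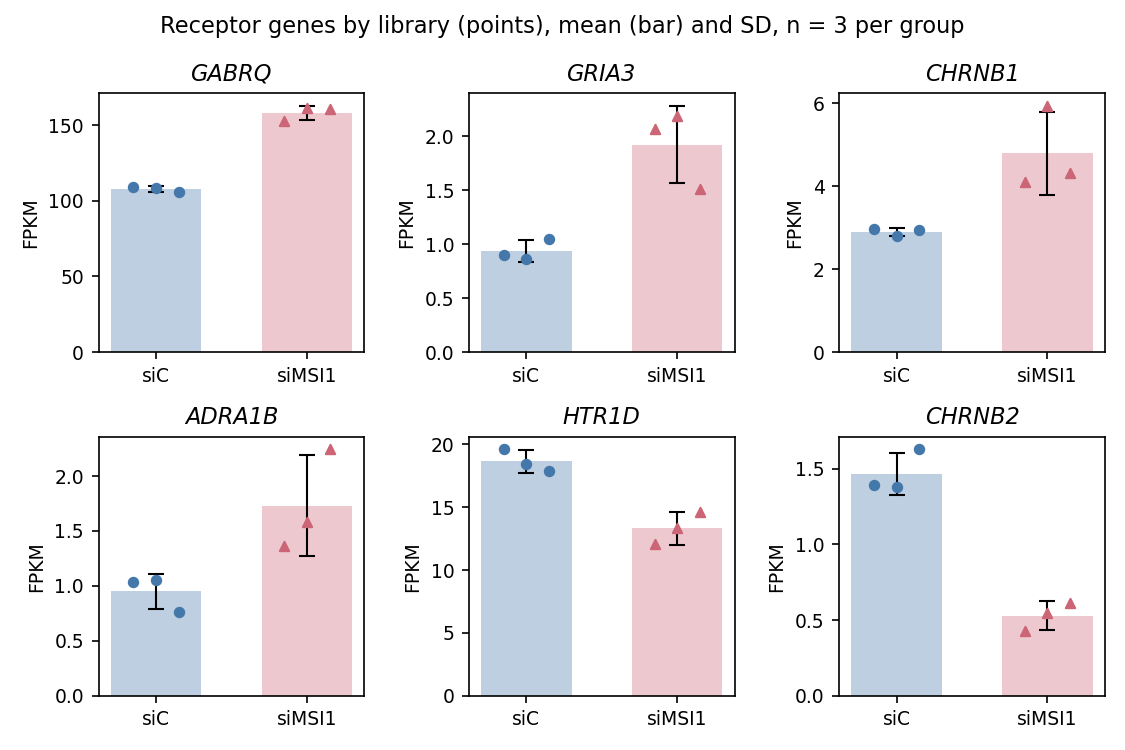
FPKM of 6 receptor genes by library (points), with the group mean (bar) and SD, n = 3 per group. The groups do not overlap in any panel, with GABRQ, GRIA3, CHRNB1 and ADRA1B higher in siMSI1 and HTR1D and CHRNB2 lower, although CHRNB1 and ADRA1B missed the threshold.

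Nicotinic receptors are acetylcholine-gated cation channels, and 1 of their 5 tested genes passed the threshold. CHRNB2, at chr1:154567778-154580013, encodes the beta-2 subunit of neuronal receptors and measured 1.39, 1.38 and 1.63 FPKM in siC against 0.426, 0.544 and 0.615 FPKM in siMSI1. Every depleted library was below every control, and the mean fell to 36.0% of the control mean on 123 to 147 reads against 37 to 52. The log2 fold change was -1.33 (SE 0.207, limma adjusted p = 0.00385), the largest among the tested receptor genes. An antisense gene on the opposite strand, AL592078.1, overlaps CHRNB2 and had 3 to 6 reads in siC and 1 read in each siMSI1 library. The libraries were strand-specific, but the strand setting used in counting was not given in the sources used here, so the pair may share reads.

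CHRNB1, at chr17:7445061-7457710, encodes the beta subunit of the muscle-type receptor. It measured 2.96, 2.80 and 2.95 FPKM in siC and 4.11, 5.94 and 4.33 FPKM in siMSI1. The groups did not overlap and the mean was 165% of the control mean, but the log2 difference of 0.68 (SE 0.144, limma adjusted p = 0.0125) missed the threshold. CHRNA9, best known from the efferent synapse of cochlear hair cells, measured 5.63, 7.26 and 5.97 FPKM in siC and 8.82, 9.41 and 7.28 FPKM in siMSI1, so the lowest depleted library was only just above the highest control (log2 fold change 0.43, SE 0.130, limma adjusted p = 0.0454). CHRNA5, an accessory subunit, measured 4.16, 4.61 and 4.70 FPKM in siC and 4.92, 5.20 and 4.57 FPKM in siMSI1, with overlapping groups (log2 fold change 0.12, SE 0.093, limma adjusted p = 0.374). CHRNE, the epsilon subunit of adult muscle receptors, had 16 to 25 reads per library and a log2 difference of -0.06 with an SE of 0.351 (limma adjusted p = 0.924), too few reads to show a moderate change. CHRNE also lies opposite MINK1, a gene with at least 2909 reads in every library.

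Serotonin receptors of the 5-HT1 class inhibit adenylyl cyclase, and some of them are the targets of triptan drugs. HTR1D, at chr1:23191895-23217502, measured 19.6, 18.4 and 17.9 FPKM in siC and 12, 13.3 and 14.6 FPKM in siMSI1. The groups did not overlap, and the mean went from 18.6 ± 0.886 to 13.3 ± 1.29 FPKM (SD, n = 3 each), or 71.5% of the control level. The log2 fold change was -0.49 (SE 0.086, limma adjusted p = 0.00634) on 495 to 946 reads. The pseudogene HTR1DP1, a near copy of HTR1D, had 0 reads in all libraries. HTR1F, the related 5-HT1F receptor, measured 3.70, 3.86 and 3.39 FPKM in siC and 3.85, 3.62 and 2.64 FPKM in siMSI1, with overlapping groups (log2 fold change -0.13, SE 0.149, limma adjusted p = 0.575). Summed over the 17 serotonin receptor genes, the level was 21.6 to 23.7 FPKM in siC and 16.2 to 17.4 FPKM in siMSI1, most of it HTR1D.

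The calls of HTR1D, GRIA3 and CHRNB2 were less stable than that of GABRQ. Leaving out siC replicate 1, 2 or 3 or siMSI1 replicate 1 or 2 ended the call of each of these 3 genes, and the calls were kept without siMSI1 replicate 3. The adjusted p without 1 library ranged from 0.00325 to 0.0343 for HTR1D, from 0.00526 to 0.036 for GRIA3 and from 0.005 to 0.0213 for CHRNB2. With all 6 libraries, HTR1D and GRIA3 also lost the call with no filter (adjusted p = 0.0215 and 0.0254 in limma), a filter of 0.1 FPKM (0.0103 and 0.013), plain variance moderation (0.0211 and 0.0133) and a replicate block (0.0106 and 0.018), and HTR1D was just above the threshold after median centring. CHRNB2 kept its call in all 11 fits with all libraries that tested it. The direction of all 3 stayed the same in every alternative fit.

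None of the other G protein-coupled receptors passed the threshold. DRD2, the inhibitory dopamine receptor and target of antipsychotic drugs, measured 3.31, 3.29 and 3.63 FPKM in siC and 3.91, 4.26 and 5.08 FPKM in siMSI1. Its groups did not overlap, but the log2 difference of 0.36 (SE 0.117, limma adjusted p = 0.0598) missed the threshold.

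The adrenergic alpha-1B receptor ADRA1B, coupled to calcium signalling, measured 1.04, 1.05 and 0.760 FPKM in siC and 1.37, 1.58 and 2.24 FPKM in siMSI1 on 19 to 56 reads. Its groups did not overlap either (log2 fold change 0.79, SE 0.222, limma adjusted p = 0.0367). The related ADRA1D was more abundant, with 11.2, 10.2 and 12.1 FPKM in siC and 11.2, 10.9 and 12.4 FPKM in siMSI1, and its groups overlapped (log2 fold change 0.04, SE 0.088, limma adjusted p = 0.756).

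The cardiac beta-1 receptor ADRB1, which raises cyclic AMP, measured 1.05, 1.38 and 0.950 FPKM in siC and 1.05, 0.936 and 0.879 FPKM in siMSI1 (log2 fold change -0.21, SE 0.196, limma adjusted p = 0.484). The muscarinic receptor CHRM3, coupled to calcium release, measured 1.99, 1.90 and 1.65 FPKM in siC and 1.74, 1.57 and 1.64 FPKM in siMSI1 (log2 fold change -0.15, SE 0.131, limma adjusted p = 0.444). Both genes had overlapping groups.

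Below the filter, 17 genes had mean levels of 0.0252 to 0.313 FPKM and were examined on the reads behind the FPKM values with limma's voom method. That fit covered 41 receptor genes with at least 10 reads in all and called 7 (17.1%), against 14.7% of the 20307 genes in it. Among the low genes it called GRIN2B, the NMDA receptor subunit typical of the developing brain, at chr12:13437942-13982002. GRIN2B had 60, 86 and 40 reads in siC and 107, 107 and 98 in siMSI1. The log2 fold change of GRIN2B was 0.95 (SE 0.200, voom adjusted p = 0.00127), while limma on FPKM with a filter of 0.1 gave an adjusted p of 0.288 and called 2 of 30 receptor genes (6.56% of all genes in that fit). The GRIN2B groups did not overlap, and the call was not shared by the FPKM fit.

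The other low genes were mostly close to the limit of detection. CHRNA7 had 5, 5 and 2 reads in siC and 12, 12 and 10 in siMSI1, but CHRFAM7A, a near copy of part of CHRNA7, had 4 to 18 reads and the genes can share reads. GRIN2D had 3, 3 and 1 reads in siC and 15, 5 and 6 in siMSI1, and no fold is given because the controls are at or below 3 reads. GRM7, a presynaptic glutamate receptor, had 23, 35 and 18 reads in siC against 35, 36 and 29 in siMSI1, and its FPKM values did not overlap between the groups. GABBR1 had 36, 52 and 39 reads in siC against 27, 28 and 25 in siMSI1, and HTR3B, a channel-type serotonin receptor, 7, 7 and 9 against 3, 4 and 4. None of these 5 genes was called in the voom fit. CHRNA10 (6 to 20 reads), DRD4 (2 to 8), CHRM4 (0 to 13), GRIK5 (6 to 25), GRIN3B (4 to 12), CHRNA3 (4 to 10), GRM5 (7 to 17) and CHRNA1 (1 to 9) overlapped between the groups. CHRNA10 shares its strand with NUP98, and CHRM4, GRIK5 and GRIN3B lie opposite the expressed genes MDK, ZNF574 and TMEM259, so their few reads are uncertain.

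Proteins that work with these receptors were read from 6 lists of 157 genes in all, chosen by function. Of these, 82 genes were tested, and 8 were higher and 5 lower at an adjusted p of 0.01 (15.9%), with a median log2 fold change of 0.02. Among all tested genes 11% were called (5.15% higher and 5.83% lower), and among the protein-coding ones 13.1%, so the share in the lists was near the background. Among the 12 tested genes of transmitter synthesis, breakdown and transport, 3 were higher and 1 lower (33.3% called, against 11% of all tested genes, median log2 fold change 0.18). SLC6A11, a GABA transporter of astrocytes, measured 0.369, 0.388 and 0.456 FPKM in siC and 2.41, 2.09 and 2.54 FPKM in siMSI1 (log2 fold change 2.28, SE 0.179, limma adjusted p = 0.000354). ACHE, which breaks down acetylcholine, measured 19.9, 19.8 and 23.6 FPKM in siC and 44.2, 44.5 and 50.2 FPKM in siMSI1 (log2 fold change 1.13, SE 0.092, limma adjusted p = 0.000366). Its relative BCHE rose by 0.69 on the log2 scale (SE 0.1, limma adjusted p = 0.00283), and ABAT, which degrades GABA, fell by 0.40 (SE 0.080, limma adjusted p = 0.00984).

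Of the 18 tested auxiliary and scaffold proteins of glutamate receptors, 2 were higher and 2 lower (22.2% called, against 11% of all tested genes, median log2 fold change 0.05). NETO2, an auxiliary subunit of kainate receptors, measured 20.5, 21.2 and 19.9 FPKM in siC and 47.6, 46.0 and 41.9 FPKM in siMSI1 (log2 fold change 1.13, SE 0.070, limma adjusted p = 0.000206), while GRIK2 did not pass the test. DLG4, the postsynaptic scaffold PSD-95, rose by 0.44 (SE 0.084, limma adjusted p = 0.00838). CACNG4, which escorts AMPA receptors to the membrane, fell by 0.59 (SE 0.112, limma adjusted p = 0.00841), and the scaffold SHANK3 fell by 0.64 (SE 0.120, limma adjusted p = 0.00807).

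Of the 8 tested partners of GABA receptors, 1 was higher and 1 lower (25% called, against 11% of all tested genes, median log2 fold change 0.02). GABARAPL1, a relative of the receptor-associated protein GABARAP, rose by 0.50 on the log2 scale (SE 0.067, limma adjusted p = 0.00198), and LHFPL4, which helps to place GABA-A receptors at synapses, fell by 1.48 (SE 0.225, limma adjusted p = 0.00337). None of the 7 tested nicotinic chaperones and LY6 proteins passed the test (median log2 fold change -0.09). Of the 27 tested G protein signalling genes, 1 was higher and 1 lower (7.41% called, against the same 11%, median log2 fold change -0.04). GNAI1, an inhibitory G protein subunit used by HTR1D and DRD2, rose by 0.67 (SE 0.108, limma adjusted p = 0.00425), and ARRB2, which ends receptor signalling, fell by 0.43 (SE 0.079, limma adjusted p = 0.00708). Of the 10 tested receptors for other transmitters, only HRH1, a histamine receptor, passed (10% called, against 11% of all tested genes, median log2 fold change 0.16). HRH1 measured 1.67, 1.86 and 2.08 FPKM in siC and 6.41, 5.78 and 6.33 FPKM in siMSI1 (log2 fold change 1.67, SE 0.110, limma adjusted p = 0.000247).

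**Figure D5:**
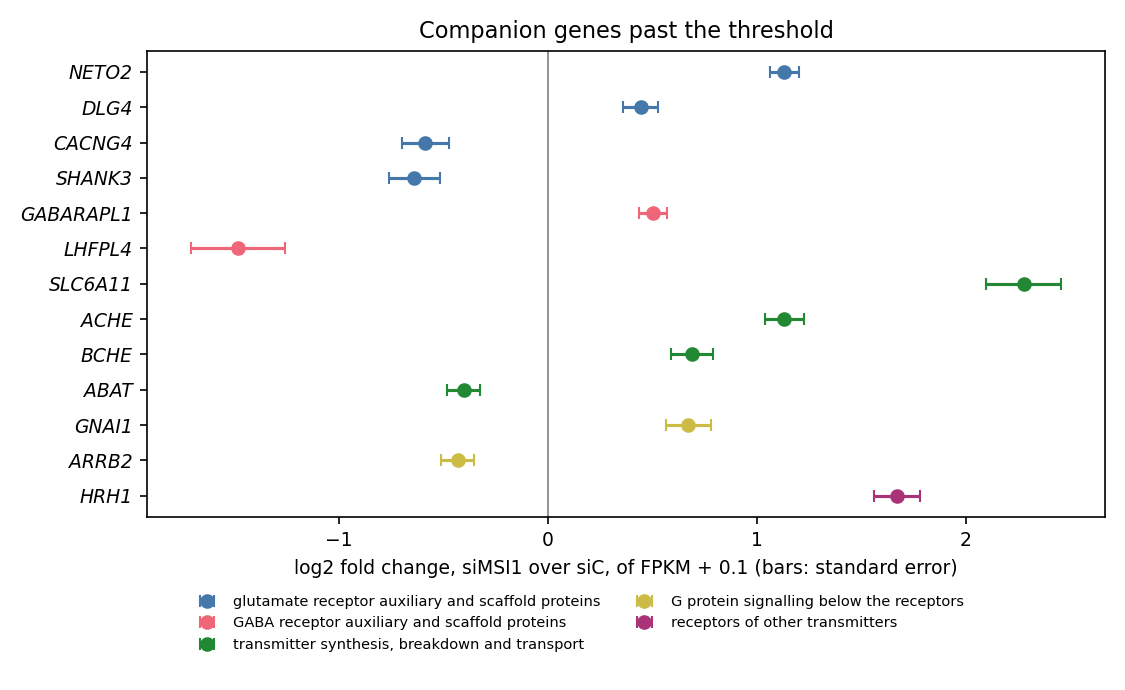
Log2 fold change of FPKM + 0.1, siMSI1 over siC, of the 13 called genes in the 6 companion lists (points, bars give the standard error, colours give the list). SLC6A11 (2.28) is farthest to the right and LHFPL4 (-1.48) farthest to the left.

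The calls of NETO2, SLC6A11, ACHE and HRH1 held in all 18 alternative fits. DLG4, SHANK3, ABAT and ARRB2 were lost whichever single library was left out, and CACNG4 with all but siMSI1 replicate 3. BCHE and GNAI1 were lost without siC replicate 1 or 3 or siMSI1 replicate 1 or 2, LHFPL4 without siC replicate 2 or 3 or siMSI1 replicate 1 or 2, and GABARAPL1 without siC replicate 1 or siMSI1 replicate 1. The adjusted p without 1 library reached at most 0.0545, for ABAT.

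Some cell type markers also differed between the groups. All 5 neural stem cell and glioma markers were lower on average in siMSI1, but MSI1 is the siRNA target, so its fall was set by the treatment. Of the others only CD44 passed the test (84.8 to 61.9 FPKM, limma adjusted p = 0.00303). SOX2, NES and VIM did not (limma adjusted p = 0.0526, 0.0944 and 0.0382). The sum of the 5 markers, MSI1 included, was 1511 to 1579 FPKM in siC and 1218 to 1320.3 FPKM in siMSI1. Of 6 astrocyte markers 3 were tested and 2 were higher, GFAP (1.63 to 4.61 FPKM, limma adjusted p = 0.000905) and AQP4 (24.3 to 42.5 FPKM, limma adjusted p = 0.00127), while S100B and ALDH1L1 had 0 reads. The summed astrocyte markers were 43.1 to 46.6 FPKM in siC and 64.1 to 72.2 FPKM in siMSI1. Of 8 neuron markers 4 were tested and 2 were lower, SYP (12.9 to 8.93 FPKM, limma adjusted p = 0.00433) and SYN1 (2.26 to 1.19 FPKM, limma adjusted p = 0.0062), while RBFOX3 had 0 reads. The summed neuron markers were 24.7 to 25.2 FPKM in siC and 17.0 to 18.4 FPKM in siMSI1. The part of these markers in the receptor values was not tested. The skeletal muscle list, relevant to CHRNB1 and CHRNE, summed to 0.621 to 1.06 FPKM in siC and 0.527 to 1.22 FPKM in siMSI1, with MYOD1 at 0 reads. Microglia and endothelium markers summed to at most 0.588 FPKM in any library. The fibroblast list had 2 tested genes, neither past the threshold, and the oligodendrocyte list had 1, PDGFRA, also not past it.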

How the data were processed

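Per the submitters' processing notes, the authors used cutadapt 1.14, HISAT2 2.1.0, SAMtools 1.5, featureCounts 1.5.3 and edgeR 3.18.1 on GRCh38. They deposited 1 table of FPKM values for 58174 genes in 6 libraries, with columns of their own comparison on a log2 scale and with p-values, which were not used. All per-sample columns were mapped from their names (0 unmapped). Dividing each FPKM value by the value of 1 read gave whole reads (within 0.01 read) for 100% of values. No library pair matched within counting noise.

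The FPKM values were tested as log2(FPKM + 0.1) with limma 3.58.1 in R 4.3.3 (lmFit, eBayes with trend and robust), two-sided, for the 15069 genes with a mean of at least 0.5 FPKM, with Benjamini-Hochberg adjustment over all of them and a threshold of 0.01. Adding 0.1 understates changes of low genes. A single-gene exact permutation test of 3 against 3 libraries cannot go below p = 0.1, so none is given. Every tested receptor gene is named, as are genes under the filter with over 3 reads in each library of a group, and up to 3 called genes per direction of each companion list. HTR1DP1, CHRFAM7A, cell type markers and overlapping genes were added where a receptor value rested on them. The rule for the members uses symbols only, but this gene set and the companion lists were chosen with earlier results of these data known. Gene positions and 3′UTRs came from GENCODE release 44 on GRCh38, in which all 97 genes matched. The fit was tested on simulated data first. Alternatives changed the added value, filter, scaling, variance model, threshold and libraries, and used voom on the recovered reads. Some receptor genes and sequences are not reported here.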

Additional observations from a re-analysis of the deposited data

How the results depend on the processing

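MSI1 was lower in every alternative (log2 fold change -2.45 to -2.34). The 4 of 17 receptor genes called became 2 of 67 with no filter and 2 of 30 with a filter of 0.1 FPKM. Plain variance moderation gave 2 of 17, and all these fits kept GABRQ and CHRNB2. Voom on at least 10 reads gave 7 of 41, and an adjusted p of 0.05 gave 7 of 17. Over the table, 1655 called of 15069 genes became 792 of 29846 with no filter and 1339 of 20416 with a filter of 0.1 FPKM. Plain moderation gave 847, voom 2855 and an adjusted p of 0.05 gave 3787, all of 15069. Voom on at least 10 reads gave 2983 of 20307. Called companion genes, 13 of 82, became 5 of 140 with no filter and 8 of 102 with a filter of 0.1 FPKM. Plain moderation gave 7, voom 22 and an adjusted p of 0.05 gave 27, all of 82. Voom on at least 10 reads gave 24 of 124. Leaving out 1 library gave 1 to 4 receptor genes, 528 to 1603 genes of the table and 4 to 9 companion genes. Fewer libraries leave fewer degrees of freedom. For the other changes the cause was not tested.

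The sources used here do not say whether equal replicate numbers mark a shared batch, and the main fit did not pair them. Correlations of same-numbered deviations were -0.0661, 0.0783 and 0.083, and those of differently numbered ones ranged from -0.144 to 0.07. On the second principal component of the log2 values (19.35% of the variance), replicate 2 was lowest and replicate 3 highest in both groups. A shared replicate effect was not tested on its own. With a replicate block, 2 receptor genes (GABRQ and CHRNB2), 2250 genes of the table and 14 companion genes were called, and with the block in voom 7, 5070 and 36.

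The sign of 4 uncalled genes turned. ADRA1D ranged from -0.0204 to 0.103, GRIK2 from -0.108 to 0.0648, HTR1F from -0.229 to 0.034 and CHRNE from -0.299 to 0.102 over the fits without 1 library, and CHRNE was 0.0164 with quantile normalization. CHRNB1 was called in 4 of 18 alternatives. Low depth limits CHRNE, ADRA1B and the genes under the filter.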

Other observations

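The genes beside CHRNB1 were examined within 50 kb because CHRNB1 was higher in all siMSI1 libraries without passing the threshold, and the genes named here were chosen after their values were seen. AC113189.1, on the opposite strand and 7538 bases away, measured 0.911 FPKM on average in siC and 6.90 FPKM in siMSI1, on 3 to 6 and 22 to 38 reads (log2 fold change 2.82, SE 0.264, limma adjusted p = 0.000571). AC113189.3, also on the opposite strand and 1734 bases away, had 0 or 1 read per siC library and 7 to 15 reads per siMSI1 library. POLR2A, the largest subunit of RNA polymerase II, lies 26656 bases away on the strand of CHRNB1 and measured 42.7 FPKM in siC and 64.5 FPKM in siMSI1 (log2 fold change 0.59, SE 0.086, limma adjusted p = 0.00287). ZBTB4, 1656 bases away on the opposite strand, measured 25.4 and 25.0 FPKM (log2 fold change -0.03, SE 0.059, limma adjusted p = 0.787). TMEM102, 7382 bases away, measured 1.95 and 2.06 FPKM (log2 fold change 0.07, SE 0.155, limma adjusted p = 0.786). Whether the CHRNB1 values and those of its neighbours are related was not tested.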
